A study of Oryza sativa with 4 samples.

Results

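Gene models of the rice genome that carry the gene ontology (GO) term for DNA integration were examined in seedlings of the mre11 mutant and of the wild type (WT). The annotation deposited with the counts puts this term on 5352 of 55986 gene models. Models were selected on the measured values as well as on the term: the 4 libraries together had to hold at least 20 reads on the model, which 223 of the 5352 did. The selection used the sum over both genotypes and not the difference between them. A model read in 1 genotype alone could pass it, and such models are counted separately where they occur. The deposited annotation pairs locus identifiers with GO terms and KEGG orthology numbers and not with gene names, so models are given by locus identifier.

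RNA-seq was done on whole 7-day-old seedlings of Japonica rice. The mutant carries a T-DNA insertion in an intron of OsMre11, a gene for a nuclease of double-strand break repair, and is 1 insertion line in the Dongjin background, the cultivar that also served as WT. There were 2 mre11 libraries and 2 WT libraries, and each was made from several pooled plants. The labels do not say whether the samples of a genotype were grown apart, so p-values measure the spread between these samples, which may be technical.

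DNA integration is the step by which a mobile element is joined to the host chromosome. In long terminal repeat (LTR) retrotransposons, the most abundant mobile elements of grass genomes, an RNA copy of the element is translated into a polyprotein holding a capsid protein, an aspartic protease, a reverse transcriptase, a ribonuclease H (RNase H) and an integrase, and the reverse-transcribed copy is inserted elsewhere by the integrase. Most copies in a plant genome are held silent by DNA methylation and small RNAs, and many are truncated.

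The label "retroelement" held only in part. Of the 223 models, 98 also carried the term for RNA-directed DNA polymerase, the reverse transcriptase. A further description was made after the values had been seen: 165 models had terms of mobile element proteins and no KEGG orthology number, while 58 had a KEGG orthology number or a term for another function. The group with another function held the 2 models with most reads, both numbered as ribosomal protein S19e, and others numbered as exportin-1, a CCR4-NOT subunit, galacturonokinase and ABCE1, a ribosome recycling factor. The 223 are therefore called integration-term models here.

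The counts on gene models summed to 19004825 and 17170661 in the mre11 libraries, against 12753324 and 16460543 in the WT libraries. As a check of the labels, Mre11 (LOC_Os04g54340) had 132 and 118 counts in the mre11 libraries, against 306 and 471 counts in the WT libraries, and its log2 fold change was -2.09 ± 0.191 (SE, adjusted p = 0.00141, edgeR). Levels in CPM are counts scaled to a common library size, here with edgeR's TMM method. A model was called higher or lower in mre11 with an adjusted p under 0.05 in edgeR's quasi-likelihood test, adjusted over all 24470 genes tested, and at least a 2-fold difference. By an exact permutation test, 2 libraries against 2 cannot give a p below 0.333 for a single value, so each p depends on a spread estimated jointly from many genes. Log2 fold changes are mre11 over WT.

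Most gene models with the term had no counted read in these seedlings. No read was counted in any library on 4469 of the 5352 (83.5%), against 37.1% of the models without the term. Copies that were not expressed cannot be told apart from copies whose reads were left out because they matched several places. A further 660 had 1 to 19 counts over the 4 libraries. The mre11 libraries had a count on 537 and 453 models with the term, and the WT libraries on 471 and 521, so the number of models detected overlapped between genotypes, in mre11 libraries that were the more deeply counted. The 660 weakly read models together had 32.6 and 28.5 CPM in the mre11 libraries, against 52.8 and 50.0 CPM in the WT libraries.

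The 223 selected models were long and weakly expressed. Their listed length had a median of 4825 bases, from 282 to 18405, against 2391 bases over all gene models. Per length, in the deposited values, their mean level over the libraries had a median of 0.615 RPKM, which is reads scaled to library size and to a gene length set by the authors, against 8.39 RPKM over all genes tested. It was below 1 RPKM in 141 models and at least 10 RPKM in 16. The summed count had a median of 112. The 5 models with most reads held 45.0% of the reads on all 223. The integration-term models took 0.252% and 0.230% of the counts of the mre11 libraries, against 0.317% and 0.291% in the WT libraries.

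Integration-term models were lower in mre11 more often than higher. Of the 223, 178 passed the filter on low counts and were tested. Among these, 56 fell and 10 rose in mre11, and 112 were not called. The 56 are 31.5% of the tested models, where 9.31% of all genes tested were called lower. The 10 are 5.62%, where 12% of all genes tested were called higher, and 21.3% of all genes tested were called in either direction. Over all 223 models, the lower calls are 25.1% and the higher calls 4.48%. The falls spanned log2 fold changes of -7.07 to -1.04, with a median of -1.85, and the rises spanned 1.14 to 6.85, with a median of 2.25. Of the models not called, 13 were at least 2-fold lower and 7 at least 2-fold higher.

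The tilt was also seen without a threshold on the fold. The median log2 fold change of the 178 models was -0.65 (quartiles -1.57 and 0.13), against 0.03 over all genes tested (quartiles -0.52 and 0.64). It was below 0 in 124 of the 178 (69.7%), against 48.7% of all genes tested. At any fold, 62 models were lower at an adjusted p under 0.05, where 18.3% of all genes tested were, and 12 were higher, where 18.8% were. Both mre11 libraries lay below both WT libraries in 101 models (56.7%), as they did in 35.7% of all genes tested, and above both in 35 (19.7%), as in 37.5%. No test over the list was made, since it was chosen with results of these data known.

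**Figure D1:**
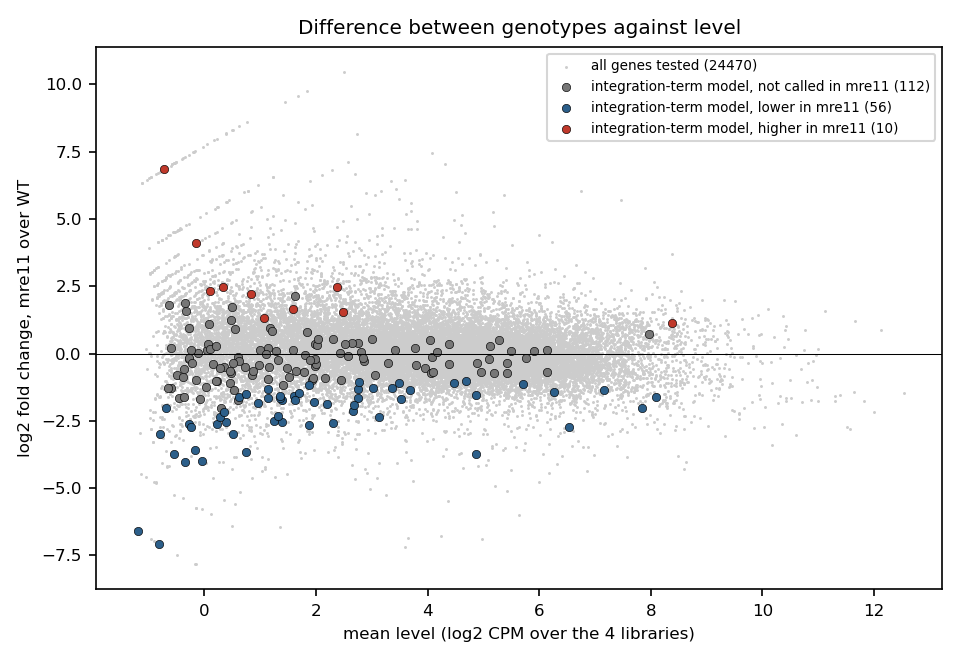
Log2 fold change of mre11 over WT (vertical axis) against the mean level in log2 CPM over the 4 libraries (horizontal axis) for all 24470 genes tested (grey points) and for the 178 tested integration-term models (large points, coloured by call). The 56 models called lower spread over the whole range of levels, and the 10 called higher lie mostly at low levels.

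The sum over the models moved less than the median model. All 223 together had 2313 and 2240 CPM in the mre11 libraries, against 3397 and 3043 CPM in the WT libraries, a log2 ratio of -0.50 that ranged from -0.60 to -0.40 over the 4 pairs of libraries, where all other gene models together had a ratio of -0.16. The 165 models with mobile element terms only had 972 and 907 CPM in mre11, against 1746 and 1633 CPM in WT. The 58 with another function had 1340 and 1333 CPM in mre11, against 1651 and 1411 CPM in WT. Both sums were below WT in both mutant libraries, by a log2 ratio of -0.85 for the models with mobile element terms only and -0.20 for those with another function. Among the 165, LOC_Os02g32250, a reverse transcriptase model, alone had 85.8 and 93.9 CPM in mre11, against 369 and 366 CPM in WT. Within the 58, the 18 with the reverse transcriptase term had 167 and 154 CPM in mre11, against 471 and 361 CPM in WT. Among the 18, LOC_Os01g57960 had 25.7 and 23.3 CPM in mre11, against 212 and 113 CPM in WT. LOC_Os01g37350 had 3.04 and 5.17 CPM in mre11, against 57.7 and 52.0 CPM in WT. The falls of the sums thus came in large part from a few models. The 40 without the reverse transcriptase term had 1173 and 1179 CPM in mre11, against 1179 and 1050 CPM in WT, which overlap. In whole seedlings, fewer cells of a type that expresses a model and less of its RNA per cell cannot be told apart.

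Fewer models were called when any 1 library was left out, and fewest without a WT library, as was also so over all genes. Without WT replicate 1, 202 models were tested and 20 were lower (9.90%, against 5.87% of all genes tested) and 2 higher (0.99%, against 7.01%). Without WT replicate 2, 201 were tested and 23 were lower (11.4%, against 6.23%) and 3 higher (1.49%, against 6.56%). Without mre11 replicate 1, 202 were tested and 36 were lower (17.8%, against 9.06%) and 6 higher (2.97%, against 10.5%). The excess of lower calls over the share in all genes was thus smaller in these fits than with all 4 libraries. In such fits the lone library is assumed to vary like the other genotype. The lower calls outnumbered the higher ones each time, and the median stayed between -0.79 and -0.47. The sign of all 66 called models was the same in every alternative fit that tested them. With counts thinned to the depth of the smallest library, 52 of 162 were lower (32.1%, against 9.37% of all genes tested) and 8 higher.

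The filter on low counts let some models through because of the genotype in which they were high, and this favours models that differ. Of the 178, 128 had at least 10 counts in every library. Among the 128, 40 were lower and 5 higher, where 9.31% of all genes tested were lower and 12% higher. The median of the 128 was -0.60. In 24 models, both WT libraries and not both mre11 libraries reached 10 counts and 13 of these were lower. In 18, both mre11 libraries and not both WT libraries did and 5 of these were higher. In the other 8, neither genotype reached 10 counts in both of its libraries. Other genes were not split by these counts, so the groups have no background of their own. The 45 models that were not tested had 20 to 63 counts in all. Both mre11 libraries lay below both WT libraries in 14 of the 45, and above them in 11. No like count was made for other genes that were not tested.

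The tilt was seen at low and at high levels of expression. Among models whose mean level was under 1 in log2 CPM, 19 of 71 were lower (26.8%), against 6.68% of the other genes at that level. Between 1 and 3, 21 of 62 were lower (33.9%), against 7.92%, and from 3 upward 16 of 45 were (35.6%), against 1596 of 15905 other genes. The medians were -0.71, -0.52 and -0.67 in the 3 ranges, where the other genes had 0.33, 0.24 and -0.06. By listed length, 14 of 57 tested models were lower in the shortest tertile, 17 of 54 in the middle one and 25 of 67 in the longest.

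By the parts of a retroelement that the annotation recognised, models with a reverse transcriptase and an RNase H had the highest share of lower calls among the groups given here. Of 21 tested models with both terms, 10 were lower and 1 was higher, with a median of -1.66. Of the 10, 4 did not reach 10 counts in every library, and among the 12 models that did, 6 were lower, with a median of -1.41. The 10 include LOC_Os01g02530, LOC_Os04g09840, LOC_Os09g19290 and LOC_Os09g39290, which have nearly the same listed length, as given below. Whether these are copies of 1 element was not tested, and no share was taken without them. Of 52 with the reverse transcriptase and no RNase H, 15 were lower and 4 higher, with a median of -0.67, and among the 41 with at least 10 counts in every library 12 were lower. With the reverse transcriptase and the aspartic protease, which cuts the polyprotein, 9 of 29 were lower and 2 higher. Models with no reverse transcriptase term but with terms for zinc ion and nucleic acid binding, which integrases and capsid proteins have, were lower in 21 of 55 and higher in 1, and in 13 of the 36 with at least 10 counts in every library. With the term for DNA recombination, 16 of 55 were lower and 4 higher. These groups overlap and were not tested against each other.

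**Figure D2:**
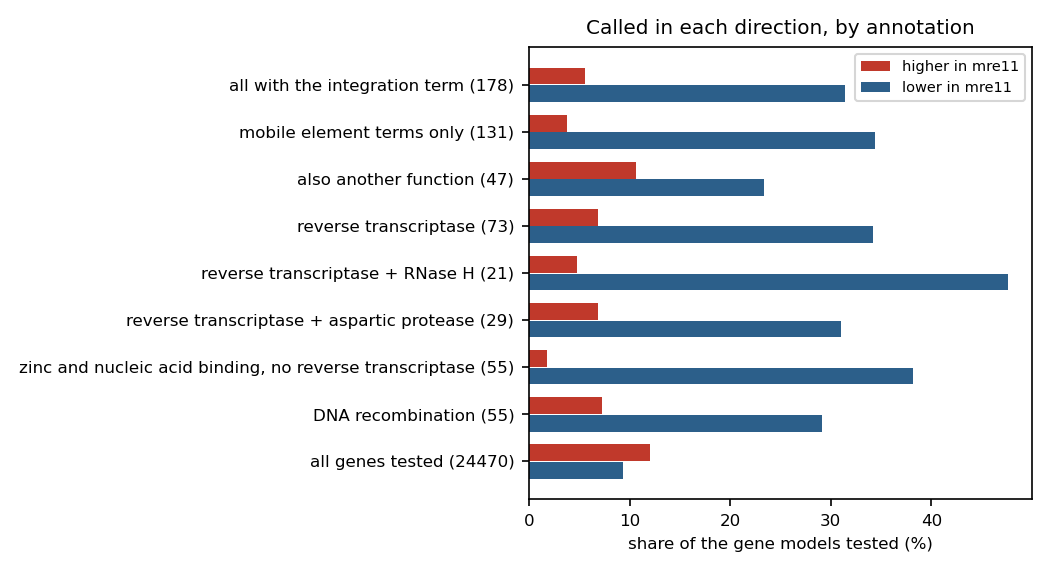
Share of tested models called higher (red) and lower (blue) in mre11, in percent, for integration-term models grouped by their other annotation, with the number tested in brackets, and for all genes tested in the bottom row. The lower calls exceed the higher ones in every group of integration-term models shown, and in all genes tested the higher calls are the more frequent.

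Models with mobile element terms only were lower in 45 of 131 (34.4%, against 9.31% of all genes tested) and higher in 5 (3.82%, against 12%). Their median was -0.80. Where the annotation also gave another function, 11 of 47 were lower (23.4%) and 5 higher (10.6%, near the share of all genes tested), with a median of -0.21. Among the 47, the 34 with no reverse transcriptase term had a median of 0.11, with 7 lower (20.6%) and 3 higher (8.82%). The difference between these groups was not tested.

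The most abundant model per length was LOC_Os03g31090, numbered as ribosomal protein S19e, a component of the small ribosomal subunit. It had 770 and 723 RPKM in the mre11 libraries, against 449 and 364 RPKM in the WT libraries. Its log2 fold change of 0.71 ± 0.165 (SE, adjusted p = 0.0182, edgeR) was under 2-fold. LOC_Os03g31134, with the same number, had 108 and 104 RPKM in mre11, against 48.0 and 38.0 RPKM in WT. It rose by 1.14 ± 0.177 (SE, log2, adjusted p = 0.00509, edgeR), and by 0.96, which is under 2-fold, without WT replicate 2. Neither model's libraries overlapped between genotypes. As both carry the same orthology number and reads of near-identical copies can be split between them, their separate values are uncertain.

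Of the other abundant models, 3 fell. LOC_Os04g51880, annotated as galacturonokinase, an enzyme that phosphorylates galacturonic acid released from pectin, had 27.7 and 29.4 RPKM in mre11, against 81.6 and 73.4 RPKM in WT (log2 fold change -1.60 ± 0.158, SE, adjusted p = 0.0016, edgeR). LOC_Os01g57960, a reverse transcriptase model, had 12.2 and 10.4 RPKM in mre11, against 85.8 and 46.8 RPKM in WT (log2 fold change -2.72 ± 0.303, SE, adjusted p = 0.00202, edgeR). LOC_Os03g01940, with terms for zinc ion and nucleic acid binding, had 23.5 and 17.2 RPKM in mre11, against 50.5 and 40.8 RPKM in WT (log2 fold change -1.34 ± 0.191, SE, adjusted p = 0.00401, edgeR). In each of the 3, both mutant libraries were below both WT libraries, and WT replicate 1 was the highest.

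The remaining 3 of the 8 most abundant models were not called. LOC_Os01g35930, a reverse transcriptase model that also has a term for regulation of transcription, had 75.5 and 58.0 RPKM in mre11, against 94.1 and 98.6 RPKM in WT, a log2 fold change of -0.70 ± 0.149 (SE, adjusted p = 0.0141, edgeR) that was under 2-fold. LOC_Os07g12700, the shortest integration-term model with 282 listed bases and an RNase H term, had 31.4 and 38.6 RPKM in mre11, against 22.0 and 20.7 RPKM in WT (0.56 ± 0.256, SE, log2, adjusted p = 0.132, edgeR). LOC_Os04g14170, a reverse transcriptase model, had 25.3 and 21.3 RPKM in mre11, against 27.9 and 26.8 RPKM in WT (-0.40 ± 0.170, SE, log2, adjusted p = 0.111, edgeR). In these 3 models the libraries of the genotypes lay apart by small margins.

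Among models whose mean level reached 1 in log2 CPM, the largest fall was that of LOC_Os01g37350. This model carries the reverse transcriptase and RNase H terms together with a sugar phosphotransferase term. It had 63 and 91 counts in the mre11 libraries, against 687 and 817 counts in the WT libraries, or 3.04 and 5.17 CPM against 57.7 and 52.0 CPM (log2 fold change -3.75 ± 0.270, SE, adjusted p = 0.00106, edgeR). LOC_Os01g57960, given above, came next, with 532 and 410 counts in mre11, against 2518 and 1772 counts in WT. In these models each WT library lay several-fold above each mutant library.

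Further large falls were measured on fewer reads. LOC_Os03g39920, with the reverse transcriptase and RNase H terms, had 19 and 19 counts in mre11, against 95 and 76 counts in WT (log2 fold change -2.67, adjusted p = 0.00491, edgeR). LOC_Os08g29980, with terms for zinc ion and nucleic acid binding, had 31 and 23 counts in mre11, against 85 and 154 counts in WT (log2 fold change -2.59, adjusted p = 0.00301, edgeR). LOC_Os04g18770, with terms for serine protease activity and DNA recombination, had 14 and 15 counts in mre11, against 63 and 58 counts in WT (log2 fold change -2.54, adjusted p = 0.00612, edgeR). The mutant libraries were close to each other in all 3 models, and most of the spread was between the WT libraries.

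The fall of LOC_Os01g25679 rested on 1 WT library. This reverse transcriptase and aspartic protease model had 13 and 13 counts in mre11, against 19 and 97 counts in WT (log2 fold change -2.52 ± 0.693, SE, adjusted p = 0.0312, edgeR). Without WT replicate 2 its log2 fold change was -1.23, and it was called neither then nor without either mre11 library. Its neighbour in the annotation, LOC_Os01g25688, which has the same protease and polymerase terms, had 28 and 18 counts in mre11, against 46 and 64 counts in WT (log2 fold change -1.73, adjusted p = 0.0148, edgeR).

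**Figure D3:**
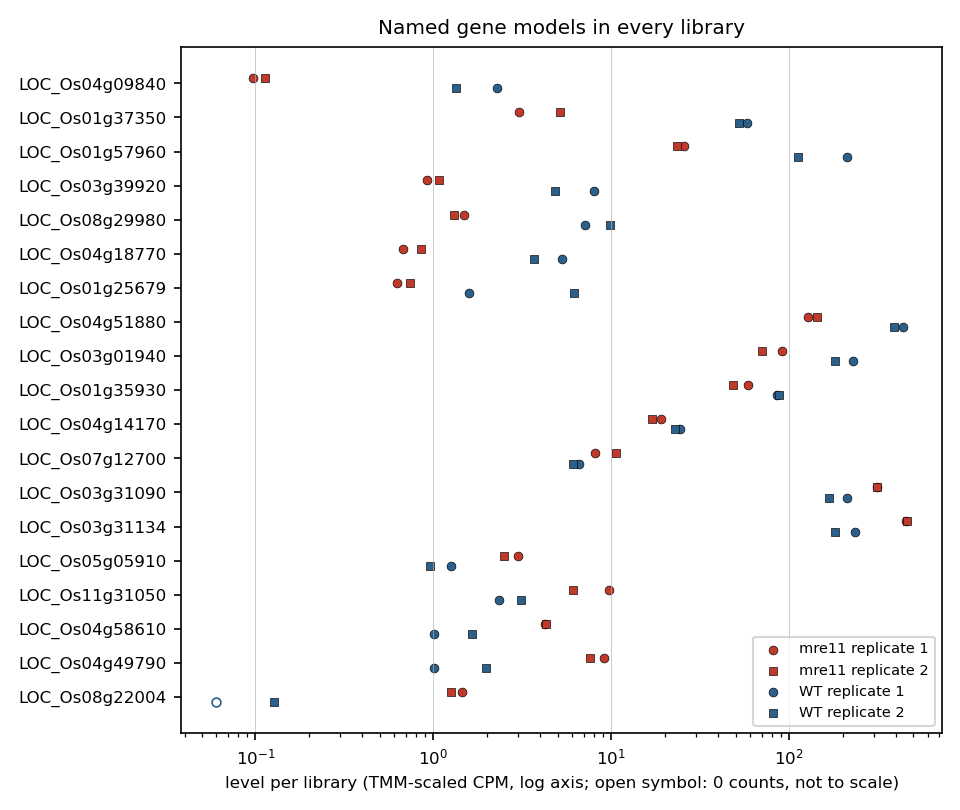
Level of the 19 models named by rule in every library, in TMM-scaled CPM on a log axis, ordered from the largest fall at the top to the largest rise at the bottom. Circles are replicate 1 and squares replicate 2 of mre11 (red) and WT (blue), and an open symbol is a library with 0 counts. In none of the models do the symbols of the genotypes overlap. The naming rule required this of the largest falls and rises and of the nearly silent models, and not of the most abundant ones. Both mre11 libraries lay below both WT libraries in 35.7% of all genes tested and above both in 37.5%.

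Rises were few, and at the same minimum level 5 models met the rule for naming them. LOC_Os04g49790, with terms for DNA binding, zinc ion binding and DNA recombination, had 188 and 134 counts in the mre11 libraries, against 12 and 31 counts in the WT libraries (log2 fold change 2.45 ± 0.388, SE, adjusted p = 0.00541, edgeR). LOC_Os11g31050 had 201 and 108 counts in mre11, against 28 and 49 counts in WT (log2 fold change 1.53, adjusted p = 0.0181, edgeR). LOC_Os04g58610 had 88 and 76 counts in mre11, against 12 and 26 counts in WT (log2 fold change 1.66, adjusted p = 0.019, edgeR). LOC_Os11g31050 and LOC_Os04g58610 share one set of terms, in which the reverse transcriptase and aspartic protease stand beside defense response and ADP binding, terms of plant immune receptors with a nucleotide-binding domain.

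Several of these rises lost the call when a library was left out. LOC_Os04g58610 and LOC_Os11g31050 each lost the call in 3 of the 4 fits that left out a library, with log2 fold changes of 1.36 to 1.68 and 1.16 to 1.74 in those fits. LOC_Os05g05910, with a term for a phosphorus-group transferase, had 62 and 44 counts in mre11, against 15 and 15 counts in WT (log2 fold change 1.32, adjusted p = 0.0456, edgeR), and lost the call in DESeq2, with the replicate block and without any 1 of the 4 libraries, at log2 fold changes of 1.11 to 1.51 in these fits. LOC_Os03g31134, the ribosomal protein model, completes the 5. The other models with a defense response or ADP binding term were looked up after these rises had been seen. Of the other 3 that were tested, none was called. The log2 fold change of LOC_Os12g35010 was 1.75, which is over 2-fold. Those of LOC_Os11g45920 and LOC_Os04g53040 were -0.67 and -0.86.

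Models nearly silent in 1 genotype occurred in both directions. At 3 counts or fewer in both libraries there were 10 models in mre11, of which 6 were called lower, and 11 in WT, of which 2 were called higher. Such models could reach the minimum summed count only with most of their reads in the other genotype. Their difference thus follows in part from the selection. How often other genes in this state were called was not counted. LOC_Os04g09840, with the reverse transcriptase and RNase H terms, had 2 and 2 counts in mre11, against 27 and 21 counts in WT. The ratio of its pooled, scaled counts in WT to those in mre11 was 16.6 (95% counting interval 6.09 to 63.5, adjusted p = 0.00617, edgeR), and it lost the call without WT replicate 1. LOC_Os08g22004, a reverse transcriptase model, had 30 and 22 counts in mre11, against 0 and 2 counts in WT. Its ratio of mre11 to WT was 18.7 (95% counting interval 4.94 to 159, adjusted p = 0.0127, edgeR), and it also lost the call without WT replicate 1. These intervals cover counting error only.

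The extreme fold changes of the list came from models at 0 in 1 genotype, whose fitted values are no bound. They were picked out after their values had been seen. Against a floor of 3 counts in each library, LOC_Os12g24100, a reverse transcriptase model with 0 and 0 counts in mre11, against 12 and 16 counts in WT, was at least 6.42-fold lower in mre11. LOC_Os05g39130, with terms for a nucleoside triphosphatase, had 15 and 18 counts in mre11, against 0 and 0 counts in WT, and was at least 3.95-fold higher in mre11.

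At the threshold of 20 summed counts, 8 models had exactly 20 and 5 had 19. Just inside were LOC_Os01g29050, with 0 and 0 counts in mre11, against 8 and 12 counts in WT, and LOC_Os05g20450, with 3 and 1 counts in mre11, against 7 and 9 counts in WT. Just outside were LOC_Os06g27460, with 0 and 0 counts in mre11, against 7 and 12 counts in WT, and LOC_Os07g33190, with 4 and 4 counts in mre11, against 9 and 2 counts in WT. Models on either side of the threshold thus had like counts. LOC_Os01g29050 entered the test through its WT counts alone and was at least 4.55-fold lower in mre11 against the floor.

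Several falling models shared a listed length, which was noticed after the values had been seen. Of the 5352 models with the term, 54.9% have a listed length that another model with the term also has, and the most common length was 6156 bases, with 107 models. Within 2 bases of it there were 157 gene models, of which 153 carried the term, 126 of these had no count, 22 had 1 to 19 counts and 5 were among the selected models. All 5 have the reverse transcriptase and RNase H terms. LOC_Os09g39290 had 40 and 61 counts in mre11, against 137 and 139 counts in WT (log2 fold change -1.92, adjusted p = 0.00943, edgeR), and LOC_Os09g19290 had 14 and 17 counts in mre11, against 31 and 87 counts in WT (log2 fold change -2.32, adjusted p = 0.016, edgeR). LOC_Os01g02530 had 4 and 1 counts in mre11, against 32 and 10 counts in WT (log2 fold change -3.57, adjusted p = 0.0299, edgeR). The other two are LOC_Os04g09840, given above, and LOC_Os06g32790, which had 8 and 4 counts in mre11, against 15 and 12 counts in WT, and was not called (log2 fold change -1.66, adjusted p = 0.0761, edgeR).

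The 5 models were on chromosomes 1, 4, 6 and 9, and none of them is next to another in the annotation. Reads of near-identical copies can be assigned to the wrong copy or left out by the counting, and a sum over copies is less exposed to this than single copies. All 153 models of that length with the term had 88 and 98 counts together in mre11, against 265 and 305 counts in WT, which is 4.25 and 5.57 CPM against 22.3 and 19.4 CPM. The 148 of them that were not selected had 20 and 13 counts in mre11, against 23 and 36 counts in WT. That is 22.7% and 13.3% of the reads of the length class in mre11, against 8.68% and 11.8% in WT, and the other reads fell on the 5. Whether the 153 models share their sequence was not tested, as no genome sequence was used here.

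By chromosome, the falls were most frequent among models on chromosomes 1 and 10. On chromosome 1, 15 of 24 tested models were lower, with a median of -1.54, where 8.60% of the other genes tested on that chromosome were lower and their median was 0.06. On chromosome 10, 7 of 11 were lower, with a median of -1.61, where 10.3% of the other genes were lower. Outside chromosome 1, 41 of 154 were lower and 10 higher, with a median of -0.51, so lower calls also outnumbered higher ones without that chromosome. Chromosome 5 went the other way, with 1 of 7 lower, 2 higher and a median of 0.19, and on chromosome 11, 1 of 9 was called, which was higher, with a median of -0.66. The chromosomes were compared after the values had been seen and were not tested against each other.

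**Figure D4:**
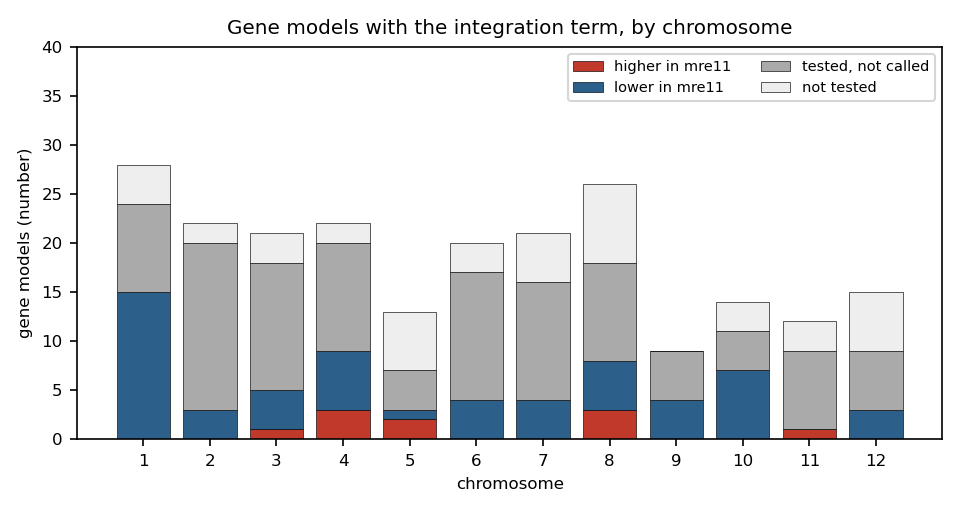
Number of integration-term models (vertical axis) on each of the 12 chromosomes of rice, split into those called higher in mre11 (red), called lower (blue), tested and not called (dark grey) and not tested (light grey). Chromosome 1 has 15 lower models of 28, and chromosome 10 has 7 of 14.

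Neighbouring models need not be separate transcripts. There were 13 pairs of integration-term models next to each other in the annotation, holding 26 models. Both members were tested in 12 pairs and had the same sign in 9. As 69.7% of the tested models were below 0, unrelated models would also often share a sign. Both members were called lower in 2 pairs. One of these is LOC_Os01g25679 with LOC_Os01g25688. The other is LOC_Os01g37400, which had 1 and 2 counts in mre11, against 14 and 25 counts in WT, with LOC_Os01g37410, which had 0 and 3 counts in mre11, against 9 and 24 counts in WT. Both lie close in the locus numbering to LOC_Os01g37350. That model had the largest fall among those whose mean level reached 1 in log2 CPM. Without all paired models, 48 of 153 were lower and 10 higher, with a median of -0.56.

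The genes next to integration-term models were compared with them. The nearest tested gene without the term, within 5 models on the same chromosome, was found for 172 models, and the log2 fold changes of model and neighbour correlated across these with a Pearson r of 0.357 and a Spearman rho of 0.301. Between other neighbouring genes r was 0.140 over 22435 pairs, which were not matched to the models in level or in spread of fold changes. No rho is given for these pairs. For the models with mobile element terms only, r was 0.359 over 125 pairs. The pairs share their libraries. The counting's strand setting is not given in the sources used here. Of the 56 models called lower, 19 had a neighbour that was lower (33.9%) and 3 had one that was higher (5.36%). Of the 116 other models with a neighbour, 14 had one that was lower (12.1%) and 10 one that was higher (8.62%), where 9.31% of all genes tested were lower and 12% higher. The 19 are 18 different genes, as LOC_Os01g37380 is the nearest gene of both LOC_Os01g37400 and LOC_Os01g37410.

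Other annotations of transposable elements covered fewer expressed models. Of the models with a reverse transcription term and without the integration term, 95 had at least 20 counts and 82 were tested. Of these, 15 fell and 6 rose, and the median was -0.21. Their sum was 461 and 487 CPM in mre11, against 625 and 618 CPM in WT. With RNase H and no integration term, 7 models were tested, with a median of -0.06. With terms for DNA transposition, the cut-and-paste elements, 3 of 10 were lower and 1 higher, with a median of -0.93. The differences from the integration-term models were not tested.

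Genes annotated to silencing and DNA methylation, the systems that hold mobile elements down, gave few calls. All 27 with at least 20 counts were tested. In mre11, 4 rose (14.8%, against 12% of all genes tested) and 2 fell (7.41%, against 9.31%), and the median log2 fold change was -0.07. Their sum was 2145 and 2226 CPM in mre11, against 1803 and 1808 CPM in WT, a log2 ratio of 0.28 with a range of 0.25 to 0.30 over the pairs of libraries. The median and the sum thus had opposite signs. Among the integration-term models themselves, LOC_Os01g16850, numbered as an Argonaute protein that binds small RNAs, had 63 and 98 counts in mre11, against 51 and 38 counts in WT (log2 fold change 0.37 ± 0.449, SE, adjusted p = 0.546, edgeR). The genotypes overlapped in that model once scaled for depth.

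Integration-term models numbered as conserved cellular genes gave values on both sides of 0. LOC_Os10g29650, numbered as ABCE1, an ATPase that splits ribosomes after translation, fell, with 378 and 204 counts in mre11, against 469 and 748 counts in WT (log2 fold change -1.54 ± 0.247, SE, adjusted p = 0.00559, edgeR). LOC_Os03g64080, numbered as exportin-1, which carries proteins out of the nucleus, had 1546 and 1299 counts in mre11, against 767 and 1098 counts in WT, a log2 fold change of 0.14. LOC_Os03g52594 and LOC_Os02g54120, both numbered as a subunit of the CCR4-NOT deadenylase, had log2 fold changes of 0.10 and -0.33, and neither was called. LOC_Os03g47560, numbered as the retromer subunit VPS26, had 121 and 48 counts in mre11, against 28 and 40 counts in WT (log2 fold change 0.81, adjusted p = 0.194, edgeR). Of 26 tested models with any orthology number, 7 were lower (26.9%, against 9.31% of all genes tested) and 1 was higher (3.85%, against 12%). Their median was -0.14.

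Genes with light harvesting, nutrient reservoir and pollen terms, chosen with tissues in mind, also differed in summed level between genotypes. Light harvesting genes, which mark green tissue, summed to 11915 and 18549 CPM in the mre11 libraries, against 5958 and 9955 CPM in the WT libraries. Of these genes, 3 of 9 tested were higher (33.3%, against 12% of all genes tested). Genes with the nutrient reservoir term, chosen for remains of the seed, summed to 1223 and 1362 CPM in mre11, against 996 and 945 CPM in WT. Of these, 5 of 28 were higher (17.9%) and 2 lower (7.14%, against 9.31% of all genes tested). Of 135 genes with pollen terms, 80 were tested in these 7-day-old seedlings. All 135 summed to 613 and 575 CPM in mre11, against 815 and 879 CPM in WT. Of these, 10 of 80 were lower (12.5%, near the share of all genes tested) and 0 higher. Whether the nutrient reservoir and pollen terms mark a tissue in seedlings was not tested. The part of these differences in the values of the integration-term models was not tested.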

How the data were processed

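Total RNA of 4 seedling samples was sequenced. The authors mapped reads to version 7.0 of the rice pseudomolecules, counted them per gene model with HTSeq 0.6.1 and deposited raw counts for each library. The aligner and the counting's strand setting are not given in the sources used here. The deposited RPKM values served for levels between models and as an alternative. The authors' RPKM rests on a length that is mostly shorter than the listed one: over 132 integration-term models, the length implied by counts and RPKM had a median of 0.718 times the listed length. The submitters' notes also name DESeq2 1.6.3.

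The whole count table was fitted with edgeR 4.0.16 under R 4.3.3, with genotype as the only term, using filterByExpr to drop low counts, TMM factors, glmQLFit and glmQLFTest, with Benjamini-Hochberg adjustment over the 24470 genes tested. DESeq2 1.42.0 and limma 3.58.1 on log2 RPKM plus 1 or 0.1 were alternatives, beside other scalings, filters and thresholds, thinned counts, a replicate block and leaving out each library. The test was first run on simulated data. SEs come from the quasi-likelihood F statistic. Counting intervals are exact binomial at 95%, and the floor is 3 counts per library.

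Integration-term models and the lists beside them were chosen with earlier results of these data known. Models were named by rule: the 8 highest in mean RPKM; the 6 largest falls and 6 largest rises (5 qualified) among called models whose mean level reached 1 in log2 CPM, with no overlap between genotypes; models at 3 counts or fewer in both libraries of a genotype and at least 20 in both of the other; and 2 on each side of the threshold of 20 counts. Any other model was named after its values had been seen. The RefSeq gene table of rice matched 0 locus identifiers, and no sequences are given.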

Additional observations from a re-analysis of the deposited data

How the results depend on the processing

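Against 56 lower calls, 10 higher calls, a median log2 fold change of -0.65 and a log2 ratio of the summed CPM of -0.50, no alternative turned a direction. Scaling by library size alone gave a median of -0.49 and a ratio of -0.33. It moved the median of all genes to 0.19, against 0.03 with TMM and 0.11 with upper quartiles, and the integration-term models stayed 0.68 to 0.69 below that median in these 3 scalings. Over all called genes, 56.3% were higher with TMM and 68.9% with library size alone. With limma, log2(RPKM + 1) gave 12 lower and 3 higher calls and a median of -0.17, and log2(RPKM + 0.1) gave 27 lower calls and a median of -0.43. These fits differ from the main one in the test, the scaling and the pseudocount at once, and the cause was not tested. At an adjusted p under 0.01, 20 were lower and 2 higher. With a summed count of at least 100, 6 were higher, and with at least 10 counts in every library, 5. Alternatives added after the data had been seen gave 5 higher calls, a median of -0.80 and a ratio of -0.85 for mobile element terms only, 25 lower calls, 5 higher calls and a ratio of -1.01 for the reverse transcriptase term, and a ratio of -0.61 without the 5 models with most reads. Leaving out 1 library gave 20 to 38 lower calls, 2 to 7 higher calls, a median of -0.79 to -0.47 and a ratio of -0.58 to -0.42.

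The replicate numbers did not pair the samples: the deviations of same-numbered libraries correlated at -0.0035 across genes. With a replicate block, 50 were lower and 10 higher, and the median was -0.64. Of the main calls, 50 of the 56 lower and 9 of the 10 higher ones were also made with the block, and of the named models LOC_Os05g05910 lost the call. Counts of 20 reads over 4 libraries limit what can be called: 45 models were not tested.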
